A study of Mus musculus with 2 samples.

Results

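The genes described here are 40 genes of the presynaptic vesicle and its release machinery, taken as a fixed list of symbols from the GENCODE M21 annotation of the mouse, with all 40 found among 21853 protein-coding genes. They were listed by role and not by a rule on measured values, though the list was chosen with earlier results of these data known. They comprise 5 genes of SNARE-mediated fusion, 9 synaptotagmins, 3 complexins, 11 genes of vesicle proteins, 3 vesicular glutamate transporters and 9 genes of the active zone. Accessible chromatin was mapped by DNase-seq, in which DNase I cuts DNA that is not packed into nucleosomes and the cut ends are sequenced, in tissue that one label calls hippocampus and another a layer of it, from female B6CASTF1/J mice (the F1 cross of C57BL/6J and CAST/EiJ) aged 2 months. There was 1 group of 2 libraries, labelled biological replicates 1 and 2, with no treatment, mutation or control tissue, so no comparison between conditions and no p-value across libraries was possible. The libraries came from different biosamples under a single donor entry, and no label says whether separate animals were used, so the spread between them may be technical.

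Neurotransmitter is loaded into synaptic vesicles by transporters, and filled vesicles dock at the active zone, a protein scaffold facing the synaptic cleft. Munc13 and RIM proteins prepare docked vesicles, the SNARE proteins SNAP-25, syntaxin and synaptobrevin pull vesicle and plasma membrane together, and synaptotagmins trigger fusion when calcium enters, with complexins holding and releasing the SNARE complex. Most of these proteins belong to families of paralogues that differ between neuron types. In non-neuronal cells many such genes are held silent by the repressor REST, which binds a 21-base element called RE1.

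Replicate 1 had 129779 peaks covering 24.5 Mb and 227153 footprints, and replicate 2 had 71895 peaks covering 14.6 Mb and 118610 footprints, a footprint being a short stretch inside accessible DNA that is protected from cutting. The values given are the peak signals deposited by the authors, scaled to each library; where a gene or region has 2 values, that of replicate 1 is first and that of replicate 2 next. The number of reads per library is unknown here, so no counting intervals are given. Promoters of all 8 listed marker genes of forebrain excitatory neurons and all 6 of dentate granule cells had a peak in both libraries, and none of 4 markers of hindbrain and spinal cord neurons did in either. Of 8 interneuron markers, 4 had a peak in replicate 1 and 2 did in replicate 2. Over all protein-coding genes, 63.4% had a promoter peak in replicate 1, 60.4% in replicate 2 and 59.0% in both. For such short lists, counts near these shares do not tell which cells were present. Glial and vascular markers differed between the libraries: 5 of 6 astrocyte, 5 of 6 oligodendrocyte, 4 of 6 microglial and 2 of 5 endothelial markers had a promoter peak in replicate 1, and 4, 2, 0 and 0 did in replicate 2. Summed promoter values of the microglial list were 2.56 in replicate 1 and 0 in replicate 2, with Aif1 and Cx3cr1 at 0 in both. Whether this difference in cell markers had a part in the differences between libraries described for the presynaptic genes was not tested. In a tissue of several cell types, a low peak value does not tell a site open in few cells from one open to a small degree in many.

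Several sites are shown because the results turn on them. The first are matches to RE1, whose letters are TTCAGCACC, 2 free positions, GGACAGCGC and a final C. Snap25, Syn1 and Syp have a match in accessible DNA, and Syt2 holds the closest match in the 40 genes and 10 kb around them (1 mismatch), which lay in no peak. Capitals mark letters that equal the RE1 consensus.
Snap25 RE1, chr2:136714338-136714358, plus strand: acctTTCAGCACCgcGGACAGCGatccgg
Syn1 RE1, chrX:20921130-20921150, minus strand: cggaTTCAGCACCgcGGtCAGaGCCttcg
Syp RE1, chrX:7638737-7638757, plus strand: gcgcTcCAGCACCgtGGACAGaGCCcggc
Syt2 RE1, chr1:134665005-134665025, plus strand: gataTTCAGCACCacGGACAGCaCCcacc
The coordinates are those of the 21-base match on mm10 (GRCm38), and 4 flanking bases are shown on each side.

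Next are promoters of paralogues with a large difference in accessibility, Syt11 at the top of the synaptotagmins and Unc13b, the Munc13 gene with the highest mean, beside Unc13c, the lowest of the 3. The sequences run from 250 bases before to 50 after the RefSeq start (GRCm38.p6), and capitals mark bases covered by a footprint in at least 1 library.
Syt11 promoter, chr3:88772550-88772849, minus strand: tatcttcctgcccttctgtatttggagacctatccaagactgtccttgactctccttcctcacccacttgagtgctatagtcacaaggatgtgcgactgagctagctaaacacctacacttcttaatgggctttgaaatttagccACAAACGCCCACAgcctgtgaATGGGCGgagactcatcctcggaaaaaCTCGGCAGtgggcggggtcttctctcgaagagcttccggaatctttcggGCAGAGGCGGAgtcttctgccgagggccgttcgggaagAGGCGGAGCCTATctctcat
Unc13b promoter, chr4:43058703-43059002, plus strand: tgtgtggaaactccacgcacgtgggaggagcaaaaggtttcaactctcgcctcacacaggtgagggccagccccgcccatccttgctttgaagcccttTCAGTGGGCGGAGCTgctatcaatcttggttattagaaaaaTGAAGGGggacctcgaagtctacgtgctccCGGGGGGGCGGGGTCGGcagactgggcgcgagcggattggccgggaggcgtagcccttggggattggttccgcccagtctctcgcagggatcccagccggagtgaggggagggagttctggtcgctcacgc
Unc13c promoter, chr9:73968988-73969287, minus strand: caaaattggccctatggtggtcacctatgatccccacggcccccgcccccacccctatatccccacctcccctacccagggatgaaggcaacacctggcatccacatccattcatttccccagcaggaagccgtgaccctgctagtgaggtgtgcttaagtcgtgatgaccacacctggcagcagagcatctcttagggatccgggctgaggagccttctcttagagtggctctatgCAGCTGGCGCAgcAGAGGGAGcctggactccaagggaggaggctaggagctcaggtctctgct
These 300 bases hold 14 CpG dinucleotides in Syt11, 20 in Unc13b and 6 in Unc13c. Bases in a footprint of both libraries numbered 11 in Syt11, 12 in Unc13b and 0 in Unc13c. An entry in the RefSeq promoter table matched 30 of the 40 genes.

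Next is the middle of a region 1.70 kb upstream of Slc17a7, the gene of the vesicular glutamate transporter VGLUT1, which was more accessible than the promoter of that gene. Capitals again mark footprint bases of either library.
Slc17a7 upstream region, chr7:45162101-45162400, plus strand: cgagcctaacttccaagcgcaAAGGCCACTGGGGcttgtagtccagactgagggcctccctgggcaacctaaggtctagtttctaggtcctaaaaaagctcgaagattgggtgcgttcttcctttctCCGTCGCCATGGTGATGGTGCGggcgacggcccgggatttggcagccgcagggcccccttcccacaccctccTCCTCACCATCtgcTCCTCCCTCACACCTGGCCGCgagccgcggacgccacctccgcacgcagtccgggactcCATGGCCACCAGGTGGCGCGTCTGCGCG
Of its 300 bases, 95 lay in a footprint of at least 1 library and 59 in a footprint of both.
The last is a region in an intron of Cplx2, a complexin gene, that was likewise more accessible than the promoter of its gene.
Cplx2 intron region, chr13:54372821-54373040, plus strand: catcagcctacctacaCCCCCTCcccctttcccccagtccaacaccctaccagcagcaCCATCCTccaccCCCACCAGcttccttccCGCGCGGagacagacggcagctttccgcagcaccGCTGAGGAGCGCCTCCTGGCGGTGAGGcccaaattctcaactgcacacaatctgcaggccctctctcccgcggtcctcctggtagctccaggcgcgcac
Here 56 of 220 bases lay in a footprint of at least 1 library and 26 in one of both.

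Nearly all presynaptic genes had an accessible promoter, though not at each of their TSSs. A peak near the transcription start site (TSS), at most 1 kb away, was listed for 39 of the 40 genes in replicate 1, where 63.4% of all protein-coding genes had one, and for 37 in replicate 2, where 60.4% did. Both libraries had one at 37 genes, against 59.0% of all genes, and at 36 genes the peaks of the 2 libraries overlapped in a region that reaches the promoter, against 58.7%. Taken 1 by 1, the 40 genes have 71 separate promoters, of which 41 had a peak in both libraries, 7 in one and 23 in neither. The share over separate promoters of all genes was not computed, so these counts do not set the presynaptic genes apart. The signal of the genes, however, lay below that of a typical accessible promoter. Among promoters with a peak in both libraries, the median of the mean value was 2.09 over the 37 presynaptic genes and 3.12 over 12895 genes; the medians of single libraries were 2.00 and 3.10 in replicate 1 and 1.77 and 2.78 in replicate 2. With promoters that lack a peak counted as 0, the order turned, since many other genes have none: 1.87 over the 40 presynaptic genes and 1.19 over all genes.

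**Figure D1:**
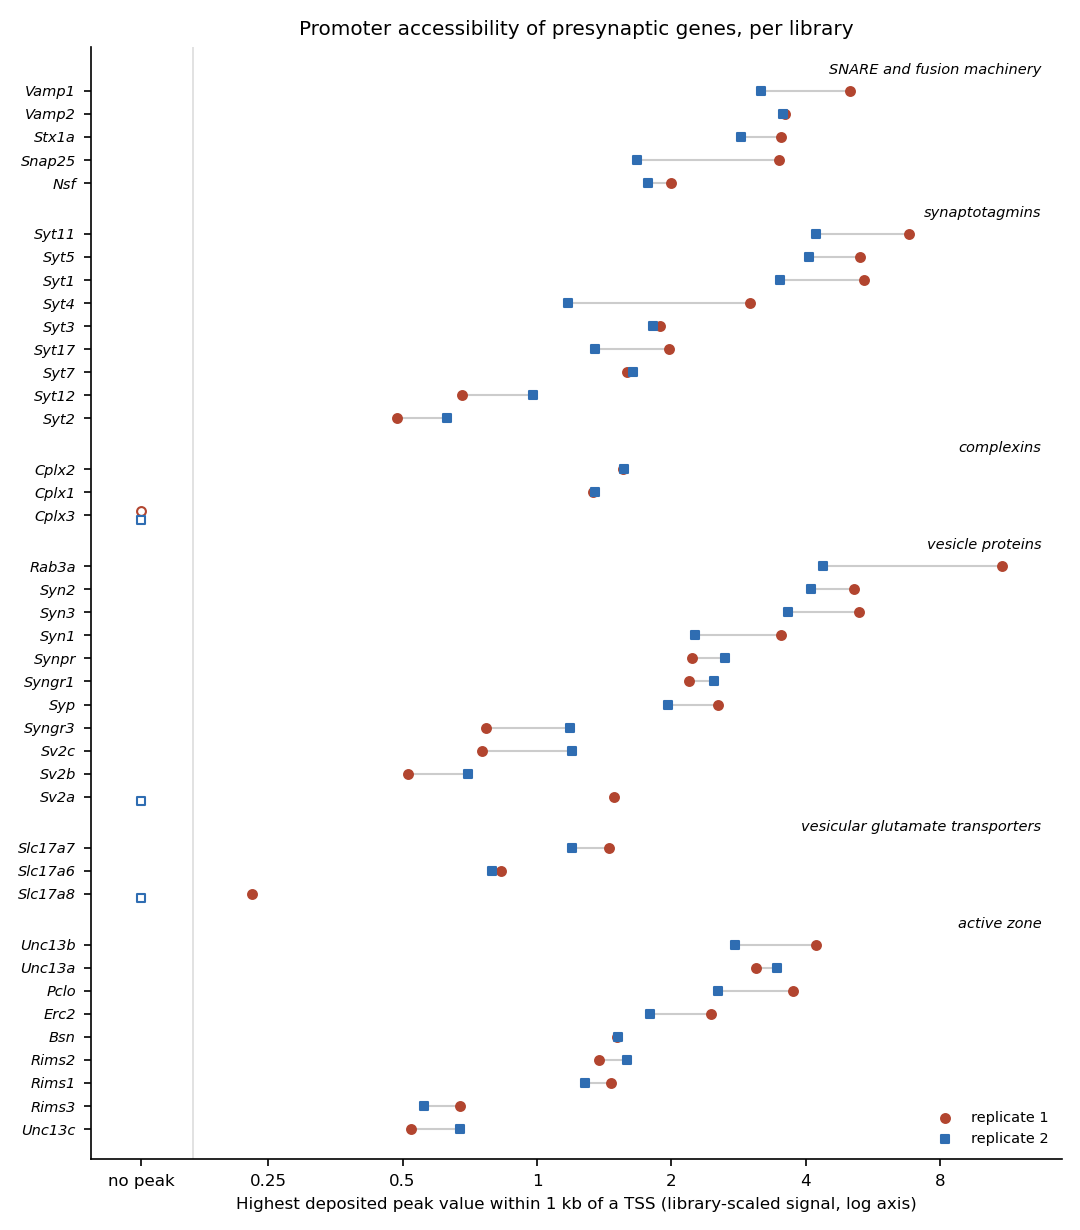
Highest peak value within 1 kb of a TSS (log axis, library-scaled signal) for the 40 presynaptic genes, grouped by role, with replicate 1 as circles and replicate 2 as squares; open symbols mark no peak. Rab3a had the highest value in both libraries, 11.0 and 4.38, and Cplx3 had no peak in either.

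Promoters rich in CpG dinucleotides are accessible in most tissues, so the promoters were set beside genes of similar CpG content (observed over expected in the 1 kb around a TSS, the highest over the TSSs of a gene). The presynaptic genes fell into quintiles 2 to 5 of all genes, with 7, 17, 10 and 6 genes and none in quintile 1. In quintile 2 a peak in both libraries was found at 4 of 7 presynaptic promoters (57.1%), against 26.2% of all genes. All 17, 10 and 6 of the higher quintiles had one, against 78.4%, 91.9% and 94.8%. Median values at these promoters were 1.56 for presynaptic genes and 2.66 for all genes in quintile 3, 2.51 and 3.55 in quintile 4, and 2.12 and 3.83 in quintile 5. Quintile 2 had the other order, at 2.26 over 4 presynaptic genes and 1.36 over all genes. Those 4 were Syt4, Syn3, Synpr and Unc13c, and Syn3 had the highest values of the 4, 5.25 and 3.65, at an observed over expected CpG of 0.352. The quintile need not be that of the accessible promoter. Syt11 was in quintile 3 through its first promoter, at 0.666 with no peak. Its accessible promoter had 0.473, within the range of quintile 2 (0.212 to 0.481), with values of 6.82 and 4.22.

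**Figure D2:**
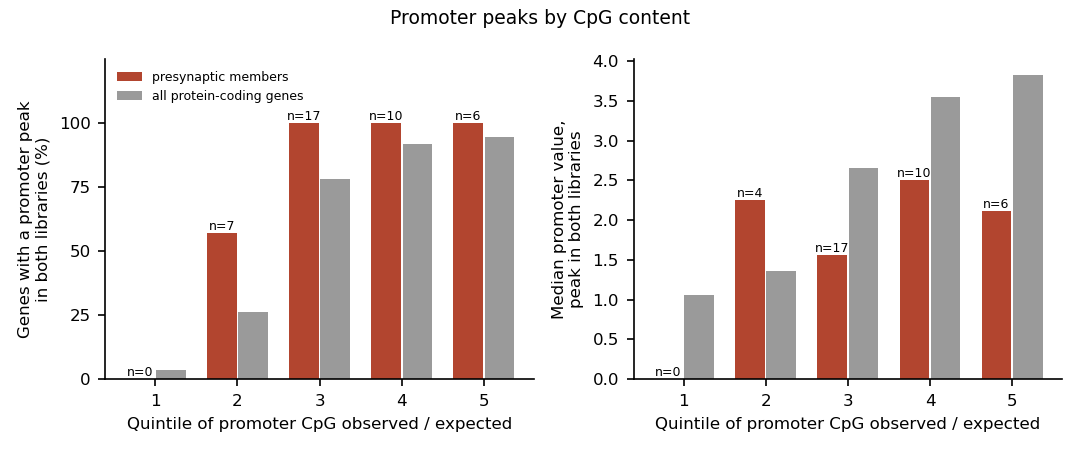
Left, share of genes with a promoter peak in both libraries; right, median promoter value of genes with a peak in both, by quintile of promoter CpG observed over expected, for the presynaptic genes (red, with their number) and all protein-coding genes (grey). Presynaptic promoters were more often accessible in quintiles 2 and 3. In quintiles 4 and 5 their share was near that of all genes, at 10 of 10 and 6 of 6 against 91.9% and 94.8%. Their medians were lower in quintiles 3 to 5.

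The fusion machinery was accessible throughout, with means from 1.89 to 4.10. Vamp1, a synaptobrevin gene, had 5.03 in replicate 1 and 3.18 in replicate 2, and its paralogue Vamp2, the main synaptobrevin of the forebrain, had 3.60 and 3.56, so their ranges overlapped. Vamp1 had peaks at a second promoter too, with 1.08 and 0.918. Stx1a, a syntaxin of the plasma membrane, had 3.53 and 2.86. Snap25, which supplies the other plasma membrane SNARE, had 3.48 and 1.67. Nsf, the ATPase that takes spent SNARE complexes apart, had the lowest mean of the group, with 2.00 and 1.77.

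Synaptotagmin promoters spanned the widest range of the families with a peak at every gene in both libraries. Syt11, a synaptotagmin that does not bind calcium, had 6.82 and 4.22, the top of the family in both libraries, and Syt2, a fast calcium sensor best known from hindbrain and spinal cord synapses, was lowest in both at 0.486 and 0.629. The ratio of the top to the lowest was 14.0 in replicate 1 and 6.70 in replicate 2. Syt11 has 4 separate promoters in the annotation, and all its promoter peaks lay at the second, with its TSS at position 88772599 of chromosome 3. The Syt2 peaks were at different promoters in each library, the second in replicate 1 and the first in replicate 2, so no promoter region of Syt2 was shared.
Syt1, the calcium sensor of synchronous release in the forebrain, had 5.41 and 3.51, close to Syt5 with 5.29 and 4.08. The order of these 2 genes differed between libraries. Syt3 had 1.88 and 1.82, Syt7, a slow high-affinity calcium sensor, had 1.59 and 1.64, and Syt12 had 0.681 and 0.980. Syt17 had peaks at both of its promoters: 0.867 and 1.35 at the first, and 1.98 and 1.30 at the second. Syt4, on chromosome 18, had 2.998 in replicate 1 and 1.18 in replicate 2, a ratio (log2 1.35) at the 99.4th percentile of 12895 genes.

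The complexins differed by gene. Cplx2, a complexin of forebrain neurons, had 1.56 and 1.57, and Cplx1 had 1.34 and 1.35, so the small gap between them was larger than the spread between libraries. With the shorter peak lists the order turned, since Cplx2 had no promoter peak there and Cplx1 kept its values. Cplx3, known from ribbon synapses of the retina, had no promoter peak, and no base within 1 kb of its TSSs was listed under an FDR of 0.05 in either library. A shared region did lie in an exon of Cplx3, 3.54 kb from the TSS, with 1.58 and 1.06.

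Among the vesicle proteins, Rab3a stood highest of all 40 genes in both libraries. This small GTPase of synaptic vesicles had 11.0 in replicate 1 and 4.38 in replicate 2, at percentile 96.6 and 77.2 of the promoters with a peak in each library. The log2 ratio of 1.33 was at the 99.4th percentile of all genes with both values. Snap25 had the next largest ratio, 1.06 on the log2 scale (96.8th percentile). Over the 37 genes with both values the median log2 ratio of replicate 1 to replicate 2 was 0.20, with 62.2% above 0, and over all genes it was 0.30, with 73.7% above 0.
The synapsins, which tether vesicles in reserve, had 5.25 and 3.65 (Syn3), 5.12 and 4.12 (Syn2) and 3.53 and 2.26 (Syn1). The ranges of Syn2 and Syn3 overlapped, and Syn1 was lowest in both libraries. Of the SV2 glycoproteins, Sv2a had 1.49 in replicate 1 and no peak in replicate 2, where 41 bases near its TSS were under an FDR of 0.05, the lowest at 0.0298. Sv2c had 0.752 and 1.20, and Sv2b had 0.513 and 0.702. At Sv2b, only the first promoter had a peak in both libraries, with 0.433 and 0.702. Sv2c was above Sv2b in both libraries, and the place of Sv2a differed between them.
Syp, which encodes synaptophysin, had 2.55 and 1.97, and its paralogue Synpr (synaptoporin) 2.22 and 2.63, with overlapping ranges. Syngr1, a synaptogyrin gene, had 2.19 and 2.497, and Syngr3 had 0.769 and 1.19; the ratio of the first to the second was 2.85 and 2.10. The Syngr1 promoter peak lay within 1 kb of a TSS of Rpl3, a ribosomal protein gene, so that peak cannot be given to Syngr1 alone. It was the only one of the 40 genes whose top promoter peak had another coding TSS that near.

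The vesicular glutamate transporters kept 1 order in both libraries. Slc17a7 (VGLUT1), the transporter of most hippocampal and cortical glutamatergic neurons, had 1.45 and 1.20. Slc17a6 (VGLUT2), more common in thalamus and brainstem, had 0.831 and 0.795. Slc17a8 (VGLUT3), found in scattered neuron groups, had 0.230 in replicate 1, the lowest value of any presynaptic promoter peak, and none in replicate 2. Slc17a7 exceeded Slc17a6 by a factor of 1.74 in replicate 1 and 1.51 in replicate 2.

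In the active zone, the Munc13 priming factors divided. Unc13b had 4.23 and 2.78 and Unc13a had 3.10 and 3.45, with overlapping ranges, and Unc13c, known from cerebellar granule cells, had 0.522 and 0.671. The top value was 8.10 times that of Unc13c in replicate 1 and 5.14 times in replicate 2. Unc13b also had peaks at a further promoter, with its TSS at position 43209498 of chromosome 4, with 1.89 and 1.77. Pclo and Bsn encode the giant scaffold proteins Piccolo and Bassoon. Pclo had 3.75 and 2.54 and Bsn had 1.51 and 1.52, a ratio of 2.48 and 1.67.
The RIM genes had low values. Rims1 had 1.47 and 1.28 and Rims2 had 1.38 and 1.59, with overlapping ranges, and Rims3 had 0.672 and 0.557 at different promoters in each library. Rims2 showed the broadest use of promoters, with peaks in both libraries at 3 of its 4: 1.12 and 1.59 at the first, 0.725 and 0.898 at the second and 1.38 and 1.09 at the fourth. Erc2, a scaffold protein that binds RIM, had 2.46 and 1.80, with peaks of 1.09 and 1.02 at a further promoter.

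Taking all 11 paralogue families, the gene with the highest promoter was the same in both libraries in 5 families: Syt11, Cplx2, Syngr1, Slc17a7 and Pclo. With the shorter peak lists Cplx1 took the place of Cplx2, and no glutamate transporter gene had a promoter peak in replicate 2. Of 58 pairs of paralogues, 43 had values that did not overlap between the 2 genes and 15 overlapped, with no peak counted as 0. The direction was the same in both libraries for 45 pairs. Synaptotagmins made up 36 of the 58 pairs, and 28 of these 36 did not overlap. The pairs within a family share their genes and are not independent. The share for pairs drawn from all genes was not computed, so these counts do not set paralogues apart from other pairs.

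Footprints lay within 1 kb of a TSS of 34 of the 40 genes in both libraries, against 56.0% of all genes. At 26 genes a footprint of one library overlapped one of the other, against 50.03%. Both shares are over all genes, many of which had no promoter peak. A promoter peak in both libraries was found at 37 of the 40 genes and at 12895 of all genes, and a footprint in both at 34 and 12241. A shared promoter region was found at 36 and 12820, and an overlapping footprint at 26 and 10933. Set against these counts, the presynaptic genes had no excess of footprints, and their share was lower than that of all genes by both measures. Promoter values of the presynaptic genes were also lower, with medians of 2.09 and 3.12, and the part of this was not tested. The most overlapping footprints were at Rab3a, with 6 of the 10 found in each library, and Syn3, with 5. Genes with no promoter footprint in either library were Cplx3 and Slc17a8.

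RE1 matches with at most 3 mismatches, sought on both strands in windows of 300 bp around shared regions, were found at 4 of the 40 genes: Snap25, Syn1, Syp and Syt4. Among all genes 0.416% had one, 91 of 21853. Each of the 4 matches had 2 mismatches. At Syn1 the match lay at position -136 from the TSS, in a promoter peak with 3.53 and 2.26. At Syp it lay 25 bases after a TSS, in a coding exon, overlapping the peak with 2.55 and 1.97. At Snap25 it was 870 bases after the nearest TSS, in an intron, in a separate peak with 0.964 and 0.898. The match in Syt4 lay in the peak of replicate 2 and 102 bp from that of replicate 1.
No footprint of either library overlapped any of these matches. The match in Syt2 was 13325 bp and 18333 bp from the nearest peak of replicates 1 and 2. Others with no peak over them were in or near Syt3, Syt7, Synpr and Rims3. With at most 2 mismatches the count was 4 of 40, against 0.220% of all genes, and with at most 4 it was 5 of 40 with Slc17a6 added, against 1.11%. A match describes letters and not binding.

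Of the other motifs sought in 300-bp windows at the strongest shared promoter region, the GC box GGGCGGG was in 23 of 36 presynaptic windows (63.9%) and in 49.9% of 12820 windows of all genes. The EGR motif GCGGGGGCG was in 13.9% and 5.87%, and the AP-1 motif TGANTCA in 11.1% and 3.46%. The ETS motif CCGGAAGT was in 2.78% and 8.79%, and the TATA box TATAAA in 0 of 36 and 3.84%. The NRF1 motif GCGCATGCG was in 8.33% and 4.17%, the CRE motif TGACGTCA in 5.56% and 4.14%, and the E-box CAGATG in 2.78% and 10.1%. The RFX motif GTTGCCATG was in 0 of 36 and 1.10%. GC box and EGR letters can overlap. The counts behind the smaller shares were 5 (EGR), 4 (AP-1) and 1 (ETS).

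Away from the promoters of coding transcripts, 36 of the 40 genes had at least 1 distal region, against 52.1% of all genes. Here distal means found in both libraries, in the gene or the 10 kb on either side, and outside 1 kb of any coding TSS. The 150 such regions were mostly in introns: 113 intronic, 10 exonic, 15 upstream and 12 downstream. Their median values were 1.17 and 0.954, beside 1.08 and 0.846 over 40567 shared distal regions of the genome. Some of the 150 lay near other annotated TSSs, such as a Bsn region 17 bp from one of 4930447F24Rik. An Unc13b region was 31 bp from an Unc13b TSS that is not of a coding transcript. Presynaptic genes are long, with a median of 48.2 kb against 17.4 kb, and per 100 kb of searched DNA they had a median of 3.44 regions against 0.866. In the longest quintile of genes, 18 of 19 presynaptic genes had a distal region, against 83.8%, and the median density was 2.25 against 1.71 per 100 kb.
Syn3 had 15 distal regions, Erc2 had 14 and Syt1 had 12. Slc17a7 had 5 in and around a gene of 12.2 kb, or 15.5 per 100 kb, the highest density of the 40. Unc13c, a gene of 490 kb, had 1, from 10 distal peaks in replicate 1 and 1 in replicate 2. No shared region was found at Vamp1, Syt2, Syt4 or Sv2a. Vamp1 and Sv2a had no distal peak in either library, while Syt2 had 8 and Syt4 had 3 in replicate 1 and neither had any in replicate 2.

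**Figure D3:**
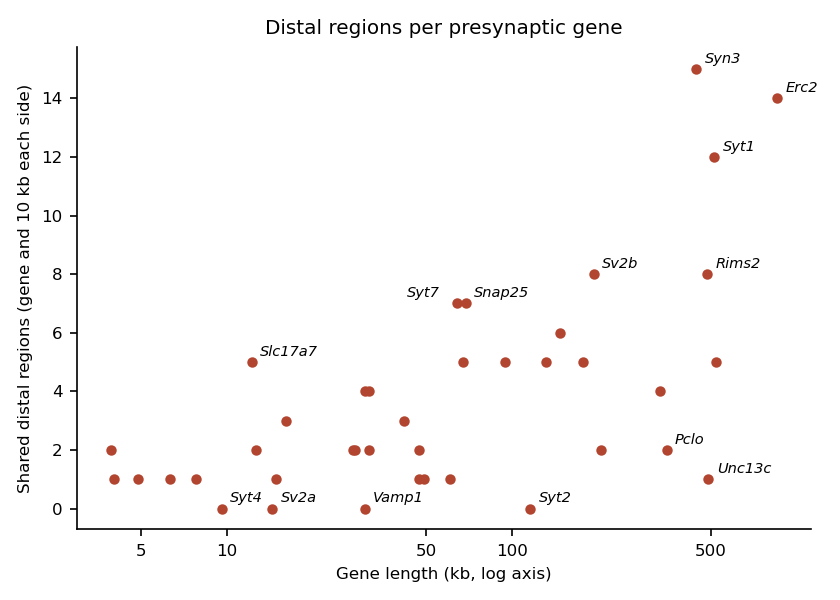
Number of shared distal regions in each of the 40 presynaptic genes and 10 kb on either side, against gene length (log axis). Syn3 had the most, 15; Slc17a7 had 5 at a length of 12.2 kb, and Unc13c had 1 at 490 kb.

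At 14 of the 40 genes a single distal region exceeded the promoter value in both libraries, against 7.61% of all genes. Restricted to genes with both a promoter peak in each library and a distal region, this was 14 of 34 presynaptic genes (41.2%) and 20.5% of 8136 genes. In the longest quintile the share was 7 of 18 (38.9%) and 26.7%. The presynaptic promoters had lower values than accessible promoters at large, with medians of 2.09 and 3.12, and the part of this in the result was not tested. The 14 genes were Vamp2, Nsf, Syt3, Syt7, Syt12, Syt17, Cplx2, Sv2b, Syngr3, Slc17a7, Rims2, Rims3, Unc13c and Bsn. The Syngr3 region lay inside the neighbouring gene Zfp598, 780 bp from the nearest annotated TSS, one of Zfp598, so it cannot be given to Syngr3 alone. The only Syt12 region above the promoter in both libraries, with 1.26 and 1.44, lay downstream of the gene. Its nearest annotated TSS was one of A930001C03Rik, at 1087 bp. The only such Nsf region, with 2.27 and 1.99, lay upstream of the gene. Its nearest annotated TSS was one of Arf2, at 5188 bp. These regions cannot be given to Syt12 or Nsf alone. Rims2 passed by a very small margin in replicate 2, with 1.599 at the distal region and 1.589 at the promoter.
The Slc17a7 region, at chr7:45162021-45162480, had 5.28 in replicate 1 and 5.12 in replicate 2, beside 1.45 and 1.20 at the promoter. No other protein-coding gene overlapped it, and the nearest TSS of any annotated transcript was that of Slc17a7. Another 4 shared regions lay 3.20, 3.88, 5.68 and 18.4 kb past the TSS, with means from 1.45 to 2.76. The region at 5.68 kb was 143 bp from a further annotated TSS of Slc17a7. The region at 18.4 kb, with the mean of 2.76, lay downstream of the gene, 1219 bp from a TSS of Pth2, so it cannot be given to Slc17a7 alone. Slc17a6, a gene of 49.1 kb, had 1 shared distal region with 0.336 and 0.568, and Slc17a8 had 1 with 0.442 and 0.299.

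**Figure D4:**
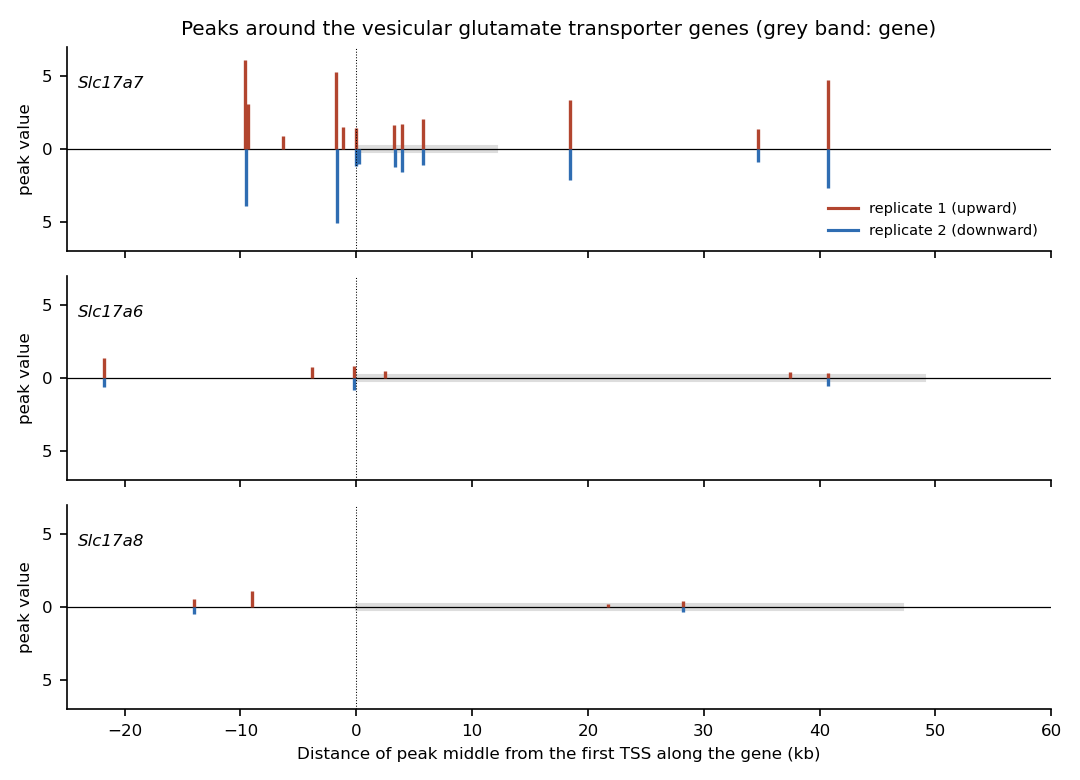
Peaks around Slc17a7, Slc17a6 and Slc17a8 by distance of the peak middle from the first TSS (kb), with bar height the peak value, replicate 1 upward and replicate 2 downward, and the gene as a grey band. Slc17a7 had peaks of 5.28 and 5.12 upstream of its TSS, and no peak inside Slc17a6 or Slc17a8 exceeded 0.568; the peaks farthest upstream of Slc17a7 lie at the promoters of Aldh16a1 and Pih1d1.

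The Cplx2 region in an intron, 1.58 kb past the TSS, had 3.68 and 3.49, beside 1.56 and 1.57 at the promoter. The RefSeq promoter entry of Cplx2 lies farther upstream, at chr13:54302306-54302605. Peaks there had 0.760 and 1.18 and were not counted for Cplx2. In Bsn a region at chr9:108137581-108137860 had 4.12 and 2.69, beside 1.51 and 1.52, and lay 393 bp from the TSS of the annotated transcript 4930447F24Rik. The region with the highest mean, at chr7:44405561-44406060 downstream of Syt3, had 8.83 and 3.38. The one counted for Vamp2, at chr11:69097041-69097300 with 6.54 and 4.27, lay inside the neighbouring clock gene Per1, 1777 bp from its nearest TSS, so it cannot be given to Vamp2 alone. The core letters of a CTCF site, CCANNAGG followed directly by NGGC, searched on both strands in 300-bp windows after the sequences had been read, were in 9 of the 150 regions (6%), the Slc17a7 upstream region among them, and in 7.21% of all shared distal regions.

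**Figure D5:**
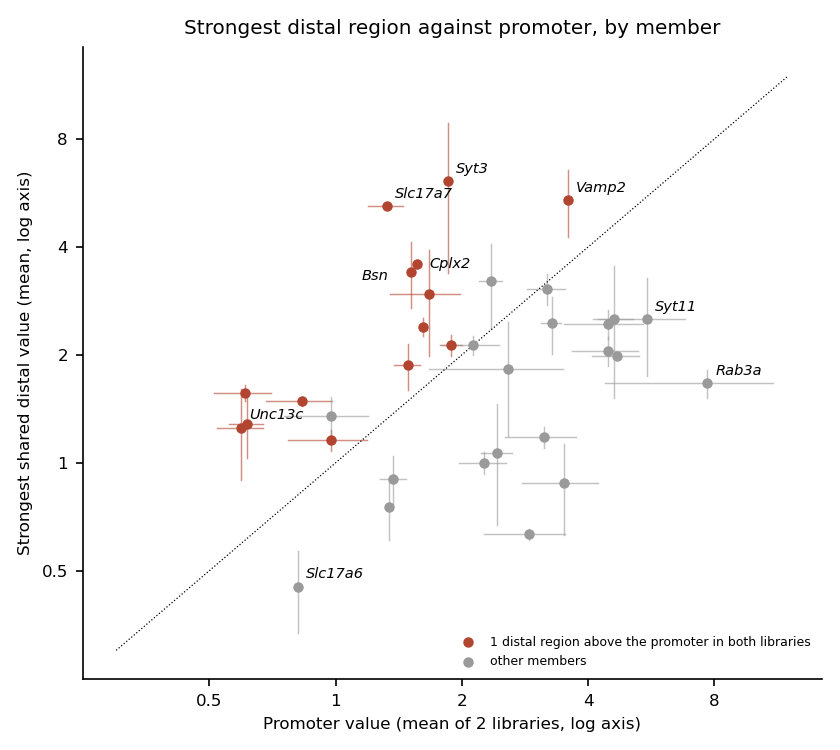
Mean value of the strongest shared distal region against mean promoter value (both log axes) for the 34 presynaptic genes with both; lines span the 2 libraries and the dotted line marks equality. Red points are the 14 genes with 1 region above the promoter in both libraries, among them Slc17a7 with 5.28 and 5.12 against 1.45 and 1.20.

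Beyond these 40, a further list of 54 presynaptic genes was examined, and 44 of them (81.5%) had a promoter peak in both libraries, with a median of 2.60, against 59.0% of all genes and a median of 3.12. The highest means were at Ppfia3 (8.71 ± 2.28), a liprin of the active zone, Napa (8.71 ± 4.51), the SNARE adaptor alpha-SNAP, Sh3gl1 (8.58 ± 1.87), an endophilin, and Dnajc5 (6.80 ± 1.15), a vesicle chaperone (SD, n = 2). No promoter peak was listed in either library at 6, though 5 of them had a shared distal region: Slc32a1, the GABA and glycine transporter, Slc18a2 and Slc18a3, which load monoamines and acetylcholine, and Tmem163, Sncg and Cplx4; only Slc18a2 had no distal region. RE1 matches in a shared region were found at 2 of the 54, Scamp5 and Rph3a, against 0.416% of all genes.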

How the data were processed

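DNase-seq peaks, footprints and base-wise FDR values of 2 libraries were used as deposited by the authors on mm10, per the labels. The sources used here name neither aligner nor callers. Each peak carries a signal that the authors deposited; values below 1 were whole multiples of 1 step per library (100% within 0.05 steps). The deposited base lists give FDR values (read as q-values) under 0.05. The score in the deposited footprint lists was 0.01 throughout and not used.

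A promoter was the DNA within 1 kb of any coding transcript's TSS (GENCODE M21), and its value the highest peak value there. Shared meant an overlap of at least 1 bp (58486 regions). The background was all 21853 protein-coding genes, the 40 included. The mice were F1 hybrids, and the sources used here do not say how CAST/EiJ alleles were placed on mm10. Sequence was RefSeq GRCm38.p6. All 40 genes were named; of the 54 others, the 4 highest and those with no peak. Promoters were printed for families with large differences; the distal sequences, and the count of genes with a distal region above the promoter, were chosen after values were seen. Genes and lists were chosen with earlier results of these data known. Alternatives were shorter lists, other windows, flanks and overlaps, all TSSs, equal peak numbers and each replicate left out. Python 3.11.15, pandas 2.3.3 and pysam 0.24.0 were used, and the procedures were tested on simulated data.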

Additional observations from a re-analysis of the deposited data

How the results depend on the processing

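Counts of genes with a promoter peak, a distal region, a footprint or an RE1 match, and of families with the same top gene, stayed within 1.5 times under each alternative run. The shorter peak lists left 29 of the 40 genes with a promoter peak in both libraries, against 53.2% of all genes; among those lost were Cplx2, Slc17a6 and Slc17a7. With each replicate left out the count was 37 to 39. The median promoter value of the 40 genes was 2.19 with a window of 2.5 kb, which takes in the Slc17a7 upstream and Cplx2 intron regions, and 1.66 to 1.99 with 1 replicate left out. The distal regions over all 40 genes numbered 67 with the shorter lists, 243 with a flank of 50 kb, and 186 to 386 with 1 replicate left out, against 150; replicate 1 alone gave 386. Of 37 promoter values, 8 moved by more than their SD with the shorter lists, 2 and 5 with windows of 500 bp and 2.5 kb, and 3 with TSSs of all transcripts. No paired analysis was possible because there was 1 group. Sequencing depth is not stated, so a site without a peak, such as that of Sv2a in replicate 2, is not shown to be closed.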
